A study of Mus musculus with 3 samples.

Results

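The proteasome genes described here are those that the array names Psma, Psmb, Psmc, Psmd, Psme, Psmf or Psmg followed by a number. There were 49 such genes among 35019 on the array. Psmc3ip, a meiotic recombination factor that shares only the start of its name, was set aside, which left 48 genes with 61 probes. Posterior frontal sutures, the midline sutures between the frontal bones of the skull, were compared in C57BL/6 mice by Cy3-labelled Agilent arrays. The groups were wild-type mice (Runx2+/+) at postnatal day 5 (P5), wild-type mice at day 7 (P7) and P7 mice heterozygous for the bone transcription factor gene Runx2 (Runx2+/-). Each group was 1 array. How many mice were pooled on an array, and what part of Runx2 the allele lacks, is not in the labels. No difference below has a replicate check or a p-value, and fewer cells of a type and less RNA per cell cannot be told apart in whole tissue.

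The 26S proteasome degrades proteins tagged with ubiquitin. Its core particle is a stack of rings, with alpha subunits (Psma) outside and beta subunits (Psmb) inside, and Psmb5, Psmb6 and Psmb7 cut the protein chain. In immune cells and under interferon gamma these are replaced by Psmb8, Psmb9 and Psmb10, which form the immunoproteasome and favour peptides for MHC class I. The regulatory particle holds a ring of ATPases (Psmc) that unfold the substrate and non-ATPase subunits (Psmd) that bind and trim ubiquitin. Psme proteins are alternative activators, Psmf1 is an inhibitor of the isolated core, and Psmg proteins help assemble it. In osteoblasts the proteasome is known to degrade Runx2 itself.

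Sequences upstream of Psmb5 and of the immunoproteasome genes are shown because the immunoproteasome genes and their constitutive counterparts are the main contrast within the family. Those of Psmb6 and Psmb7 are not shown. They are RefSeq promoter sequences of GRCm38.p6, the 200 bases before the start, 5′ to 3′ on the gene's strand. Capitals mark matches to the motifs searched.
Psmb5 (chr14:54617996-54618195, minus strand): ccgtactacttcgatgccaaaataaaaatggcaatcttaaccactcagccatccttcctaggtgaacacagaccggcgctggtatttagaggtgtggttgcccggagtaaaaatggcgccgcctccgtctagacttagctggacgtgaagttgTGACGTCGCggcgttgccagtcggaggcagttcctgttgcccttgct
Psmb8 (chr17:34197995-34198194, plus strand): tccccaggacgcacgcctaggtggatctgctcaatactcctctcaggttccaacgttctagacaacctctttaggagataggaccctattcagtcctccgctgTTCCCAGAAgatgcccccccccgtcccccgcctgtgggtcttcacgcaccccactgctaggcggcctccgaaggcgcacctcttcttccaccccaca
Psmb9 (chr17:34187331-34187530, minus strand): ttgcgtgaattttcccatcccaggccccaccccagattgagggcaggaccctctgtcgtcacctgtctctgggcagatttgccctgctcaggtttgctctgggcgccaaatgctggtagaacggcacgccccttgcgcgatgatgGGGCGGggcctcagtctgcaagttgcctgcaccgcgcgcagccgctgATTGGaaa
Psmb10 (chr8:105938393-105938592, minus strand): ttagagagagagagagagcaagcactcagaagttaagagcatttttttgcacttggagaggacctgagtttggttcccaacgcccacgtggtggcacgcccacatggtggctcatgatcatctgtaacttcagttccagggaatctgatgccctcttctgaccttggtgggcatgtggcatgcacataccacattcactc
The capitals are an antioxidant response element (TGACNNNGC, bound by Nfe2l1 and Nfe2l2) before Psmb5 and a gamma-activated site (TTCNNNGAA) before Psmb8. Before Psmb9 they are a GC box (GGGCGG) and a CCAAT box (ATTGG on this strand). No motif searched matched in the sequence before Psmb10. Psmb6, not shown, had an antioxidant response element and a GC box within 250 bases. In the reference annotation Psmb9 lies next to the peptide transporter gene Tap1, and Psmb8 lies between Tap1 and Tap2.

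Promoters were given for 40 of the 48 genes, and 9 motifs were searched on both strands over the 250 bases before the start. An ETS site (CCGGAAG) lay before 12 of the 40 (30%) and before 7.83% of 27025 genes of all kinds. A GC box lay before 22 (55.0%, against 35.4%). The antioxidant response element lay before 5 (12.5%, against 11.5%), namely Psmb5, Psmb6, Psmc6, Psmd12 and Psmd9, and a CCAAT box before 14 (35.0%, against 37.5%). An interferon-stimulated response element lay before 3 (7.5%, against 3.46%), the gamma-activated site before 2 (5.0%, against 8.13%) and a TATA box (TATAAA) before 4 (10.0%, against 14.3%). The NRF1 palindrome lay before 1 (2.5%, against 0.88%) and the YY1 site before 0 (against 0.25%). GC boxes and ETS sites may overlap, and a match describes letters only.

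The arrays differed in brightness. Well above background were 40.1% of probes at P5, 29.2% in wild type at P7 and 47.3% in Runx2+/-. Repeated spots gave an SD of a log2 difference of 0.24 for P7 against P5 wild type and 0.21 for Runx2+/- against wild type at P7. Within transcripts the log2 difference was larger towards the 3′ end, by a median of 0.18 per kb for age (962 transcripts) and 0.13 per kb for genotype (968 transcripts). The osteoblast markers of the tissue were present, with all 8 listed genes measured. In Runx2+/- all 8 were lower, with a median log2 difference of -1.84. Runx2 itself differed by -0.38, by its brightest probe.

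Most proteasome genes were bright. Of the 48, 45 were well above background on all arrays with the probe used, and Psmf1 on all but the P7 wild-type one. Psma8, a testis alpha subunit, and Psmb11, a beta subunit of thymic epithelium, did not clear background anywhere, at 2.66 to 3.51 intensity units before scaling. The mean level of the 46 measured genes lay at a median percentile of 83.4 among 20099 measured genes. Levels below are log2 values relative to the array's 75th percentile of all probes, and differences are on the same log2 scale. Where 3 levels of a gene are given, they are those of wild type at P5, wild type at P7 and Runx2+/- at P7, in this order. Age stands for P7 minus P5 in wild type, and genotype for Runx2+/- minus wild type at P7.

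At P7 the wild-type suture had slightly lower levels of most proteasome genes than at P5, and the Runx2+/- suture had higher levels than wild type at P7. The median difference over the 46 measured genes was -0.18 for age (SD between genes 0.41) and 0.38 for genotype (SD 0.46). The median over all ordered genes was 0.04 and 0.13, respectively. For age, 37 of the 46 members were below 0 and 9 above, while 47.6% of 14208 genes were below 0 and 52.4% above. For genotype, 35 were above 0 and 11 below, while 58.5% of 14306 genes were above 0 and 41.5% below. Both comparisons use the P7 wild-type array. It gave the lowest of the 3 levels for 32 of the 45 members measured on all arrays, against 27.5% of 12833 genes. The lowest level was at P5 for 5 members (39.4% of genes) and in Runx2+/- for 8 (33.1%). The highest was in Runx2+/- for 29 members (46.6% of genes), at P5 for 9 (26.0%) and in P7 wild type for 7 (27.4%). Between the remaining pair, Runx2+/- at P7 minus wild type at P5, the member median was 0.20, beside 0.10 over all genes, with age and genotype both changed.

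**Figure D1:**
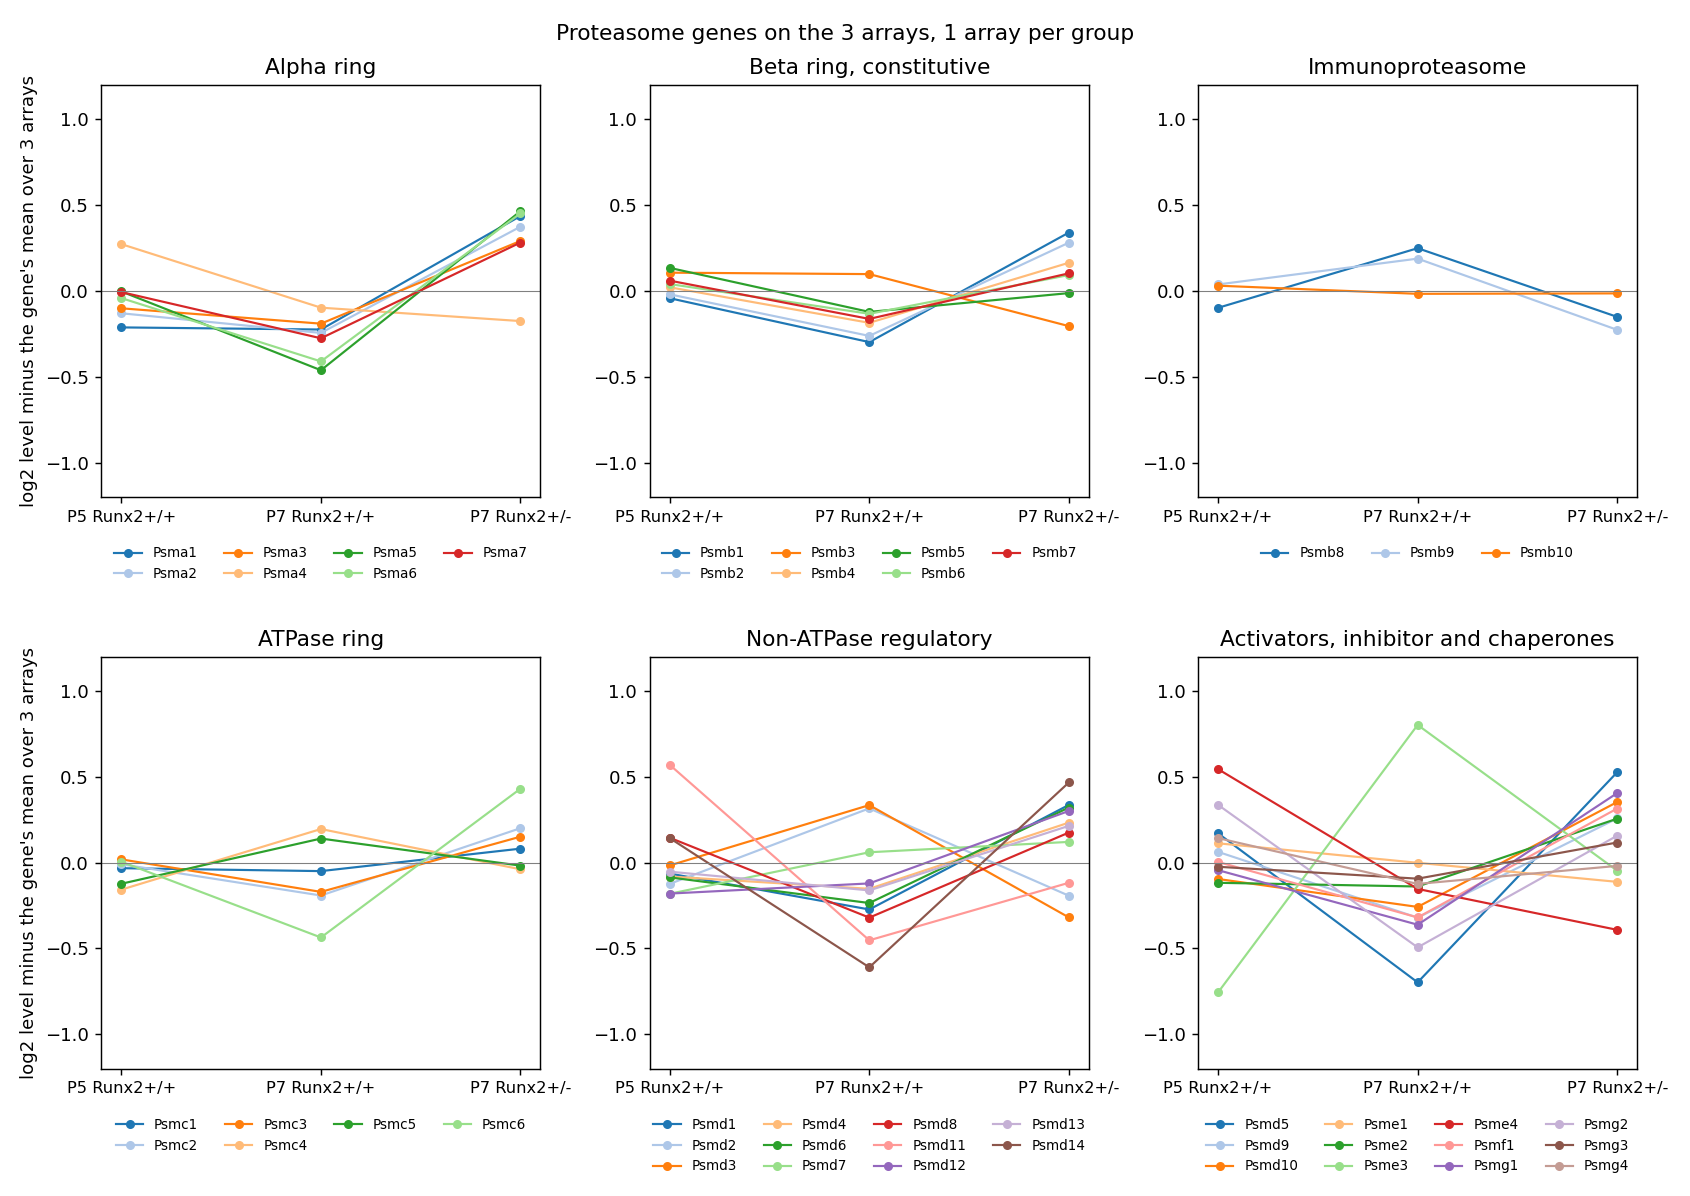
Each line is a proteasome gene across the 3 arrays (x axis, 1 array per group); the y axis is its log2 level minus its own mean over the arrays. Most lines dip on the P7 wild-type array, where 32 of 45 genes had their lowest level, while Psmb8, Psmb9, Psmd2, Psmd3, Psmc4, Psmc5 and Psme3 peak there; Psmf1 is below background there.

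Few members stood far apart. For age, 5 of 46 members (10.9%) were at least 1.5-fold lower, against 11.0% of all genes, and 1 was at least 1.5-fold higher, against 16.2%. For genotype, 12 (26.1%) were at least 1.5-fold higher, against 19.4%, and 2 (4.35%) at least 1.5-fold lower, against 21.2%. At least 2-fold apart were Psme3 (higher, as were 6.38% of genes) and Psmd11 (lower, as were 3.12%) for age. For genotype Psmd5 and Psmd14 were at least 2-fold higher, as were 5.04% of genes, and 0 members were 2-fold lower, as were 13.9%. The shares that were at least 1.5-fold lower for age and higher for genotype are near or little above the background.

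A second scaling, to the 75th percentile of the 15853 probes well above background on all arrays, moved every age difference by -0.07 and every genotype difference by -0.08. The medians became -0.24 for age and 0.30 for genotype, and the sign turned for Psmd12 for age and for Psmb10 and Psmd7 for genotype. The number of members at least 1.5-fold apart in either direction stayed at 6 of 46 for age (13%, against 27.1% of all genes under this scaling) and became 9 instead of 14 for genotype (19.6%, against 39.1%). Under this scaling P7 wild type again gave the lowest level for 32 of the 45 members (28.9% of genes). The highest was in Runx2+/- for 22 (39.9%), at P5 for 15 (31.9%) and in P7 wild type for 8 (28.2%). Background correction by normexp mattered more. With it, scaled as first described, the medians were -0.68 and 1.18, and those of the brightest genes, above the 75th percentile of mean level, were -0.60 and 1.16. Without it the brightest genes had medians of -0.01 and 0.08. Of the 9 members above 0 for age, 8 were below 0 with normexp, and Psme3 stayed above. Of the 11 below 0 for genotype, 9 were above 0 with it, and Psme3 and Psme4 stayed below. These signs belong to normexp with the 75th percentile, which is meant by normexp below unless the median is named. With normexp and the median of the probes well above background on all arrays, 6 of the 9 stayed above 0 for age (Psmb8, Psmb9, Psmc5, Psmd2, Psmd3 and Psme3). For genotype 6 of the 11 stayed below 0 (Psmb8, Psmb9, Psmd2, Psmd3, Psme3 and Psme4). Of the members on the other side of 0, 3 of 36 turned sign for age and 6 of 34 for genotype. The member medians in this setting were -0.39 and 0.52, and those of the brightest genes -0.30 and 0.45.

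**Figure D2:**
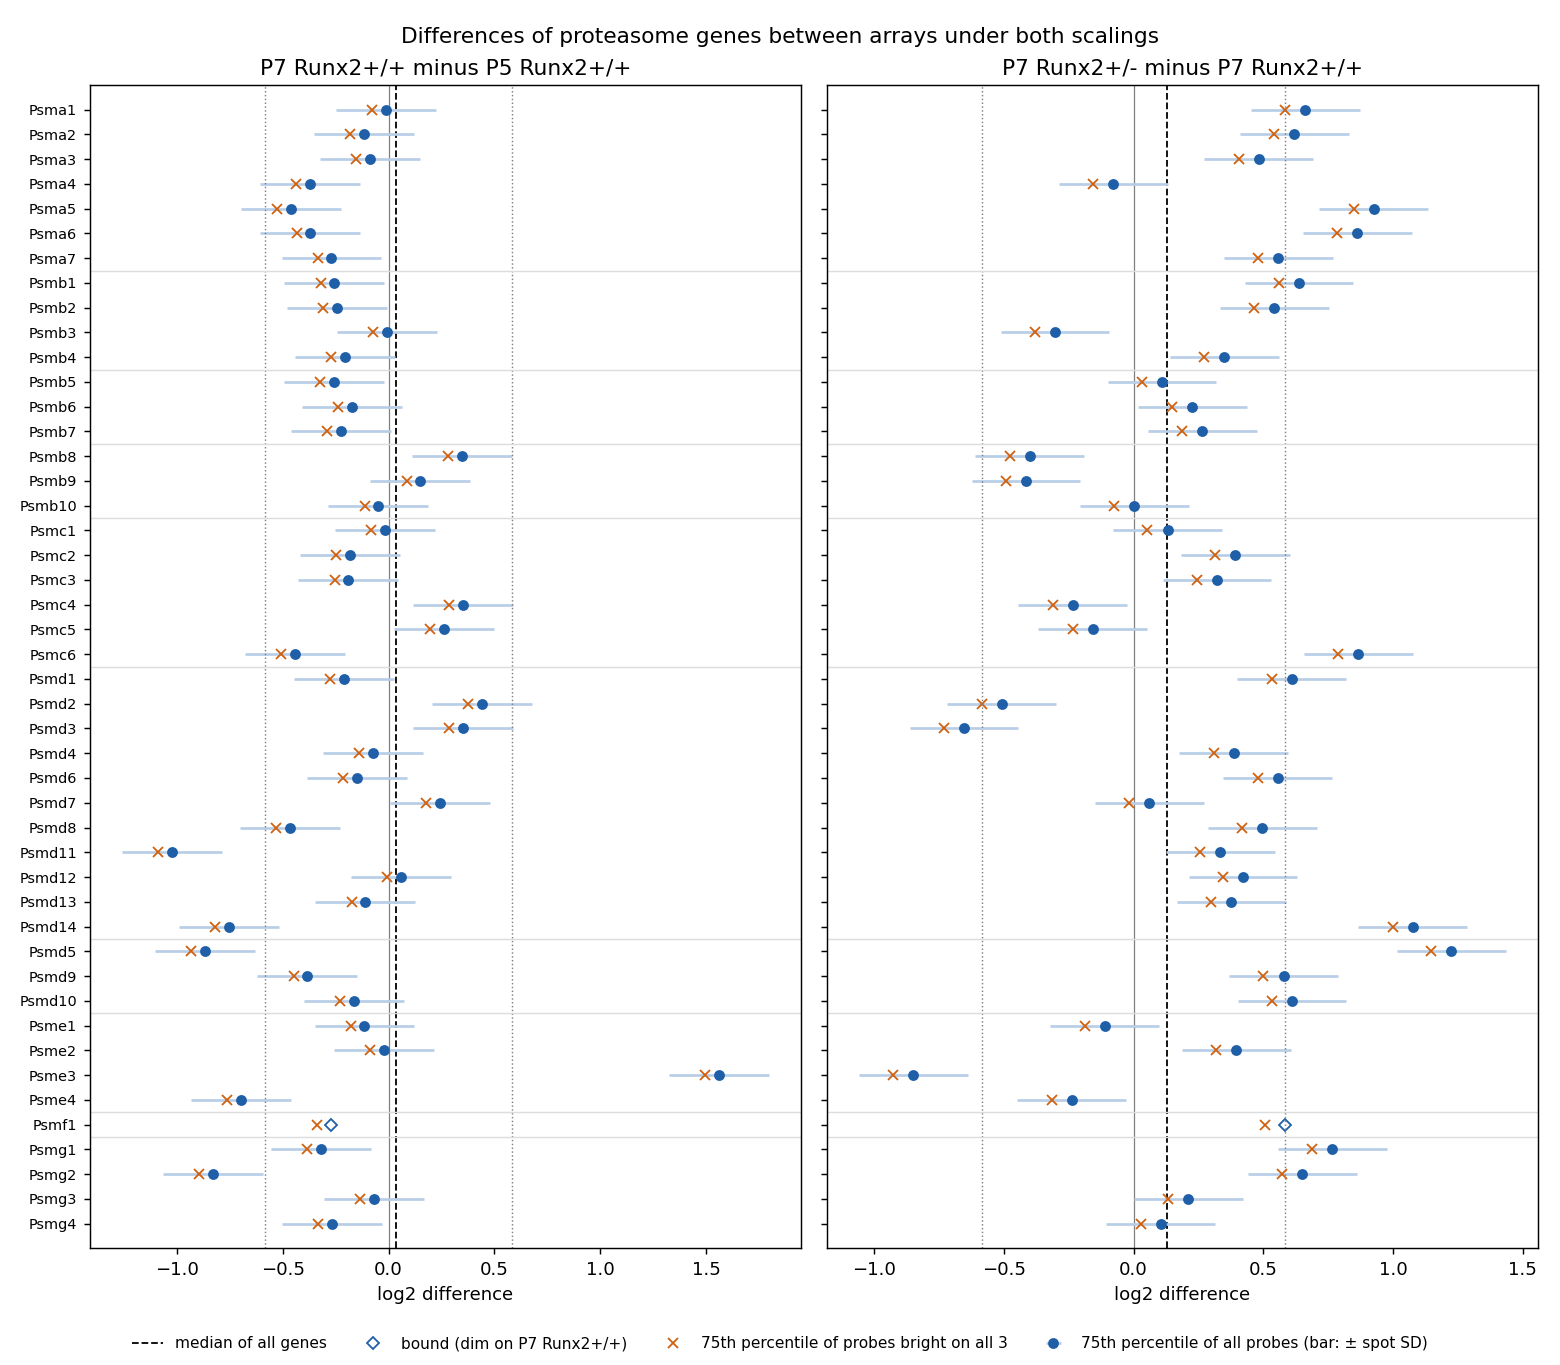
Log2 differences of 46 proteasome genes for age (left) and genotype (right); circles use the 75th percentile of all probes with bars of ± the spot SD (0.24 and 0.21), crosses the 75th percentile of probes well above background on all 3 arrays, and dotted lines mark 1.5-fold. The diamond is Psmf1, a bound. Psme3 (1.56) and Psmd11 (-1.02) lie farthest out for age, and Psmd5 (1.22) and Psmd14 (1.08) highest for genotype.

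The outer alpha ring gates entry to the core. All 7 measured alpha genes were below 0 for age, from -0.46 to -0.01 with a median of -0.27, and 6 of the 7 were above 0 for genotype, with a median of 0.62. Psma5 stood at 3.84 in wild type at P5, 3.39 at P7 and 4.31 in Runx2+/-. It was thus 0.46 lower at P7 and 0.93 (1.90-fold) higher in Runx2+/-, the largest difference of the ring in both comparisons. Psma6, at 2.92, 2.55 and 3.42, was 0.86 (1.82-fold) higher in Runx2+/-.
Psma1 was at 3.41, 3.40 and 4.06, a difference of -0.01 for age and 0.66 for genotype. Psma2, at 5.14, 5.03 and 5.65, was 0.62 higher in Runx2+/-. Psma4 was the exception, at 3.70, 3.33 and 3.25, lowest in Runx2+/-, and its other probe gave -0.20 for age and 0.06 for genotype. Psma4's differences for genotype are within the spot SD. Psma3 and Psma7 were 0.48 and 0.56 higher in Runx2+/-.

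The inner beta ring without its catalytic members followed less uniformly. For age, Psmb1, Psmb2, Psmb3 and Psmb4 lay between -0.26 and -0.01. Psmb1, at 4.09, 3.84 and 4.48, was 0.64 (1.56-fold) higher in Runx2+/-. Psmb3, at 6.05, 6.04 and 5.74, was 0.30 lower there, and 0.99 higher with normexp. These bracket the 4 genes for genotype, whose median was 0.45.

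The constitutive catalytic genes had similar differences, while Psmb7 was dimmer than Psmb5 and Psmb6. Psmb5, the chymotrypsin-like site (chromosome 14, 55232957 to 55233016 on mm9), was at 6.13, 5.87 and 5.98. Psmb6, the caspase-like site, was at 6.01, 5.84 and 6.06. Psmb7, the trypsin-like site, was at 3.07, 2.85 and 3.11. All were below 0 for age, by -0.26, -0.17 and -0.22, and above 0 for genotype, by 0.11, 0.23 and 0.27. These are close to the spot SD, and the other Psmb5 probe gave -0.03 for age and -0.25 for genotype.

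The immunoproteasome genes did not share that pattern. Psmb8 (chromosome 17, 34337771 to 34337830 on mm9) was at 1.82, 2.16 and 1.76, so it was 0.35 higher at P7 than at P5 and 0.40 (1.32-fold) lower in Runx2+/- than in wild type. Psmb9 (chromosome 17, 34319174 to 34319233, minus strand) was at 1.63, 1.78 and 1.37, a difference of 0.15 for age and -0.41 (1.33-fold lower) for genotype. Psmb10 was at 4.23, 4.18 and 4.19 and differed by -0.05 and 0.00. With normexp and the 75th percentile both Psmb8 (-0.14 for age, 0.47 for genotype) and Psmb9 (-0.22, 0.28) had the opposite sign. With normexp and the median both had the sign first given, Psmb8 at 0.15 and -0.24 and Psmb9 at 0.08 and -0.44.
Psmb8 and Psmb9 were highest in P7 wild type and Psmb10 was not, and none of these reached 1.5-fold in either comparison. Each immunoproteasome gene minus the subunit that it replaces gave 0.60 for Psmb8 and Psmb5, 0.32 for Psmb9 and Psmb6, and 0.18 for Psmb10 and Psmb7 for age. For genotype the values were -0.51, -0.64 and -0.26. Scaling an array by a single number leaves them as they are, and after normexp with either scaling they were 0.82, 0.60 and -0.02 for age and -0.90, -1.15 and -0.11 for genotype.

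**Figure D3:**
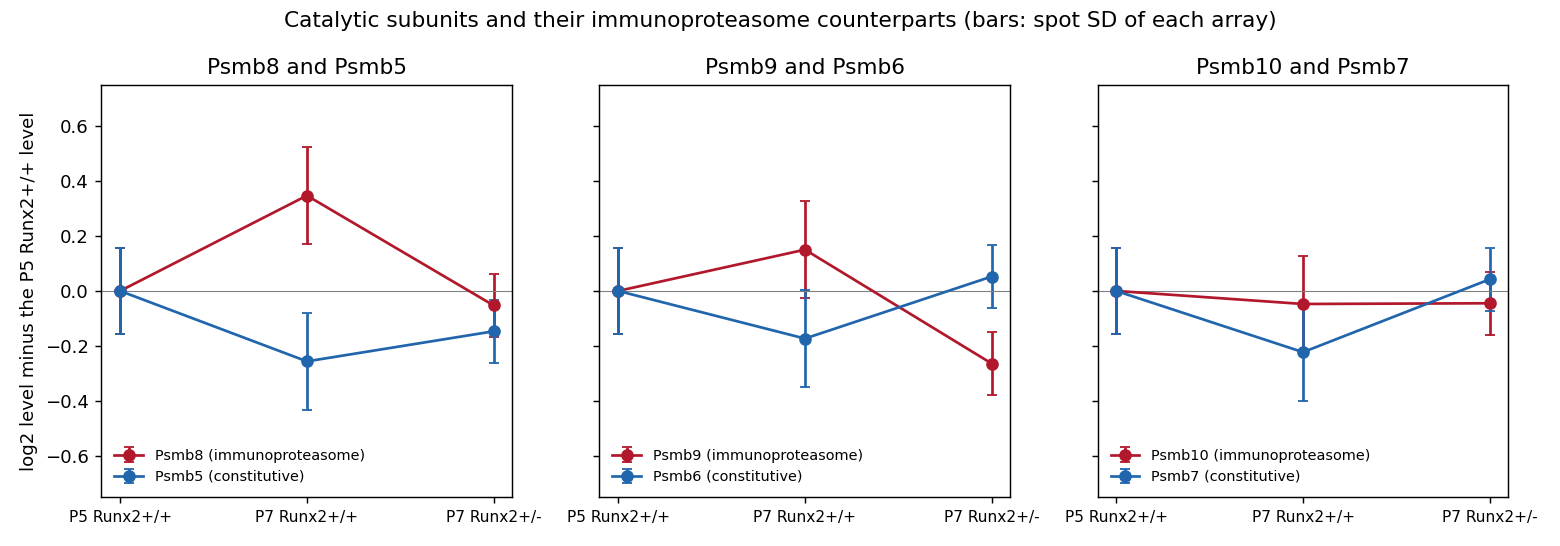
Log2 level minus the P5 wild-type level (y axis) on the 3 arrays for each immunoproteasome gene (red) and the constitutive gene it replaces (blue); bars are the spot SD of each array. On the P7 wild-type array Psmb8 and Psmb9 lie above their counterparts, though the bars of Psmb9 and Psmb6 overlap slightly. On the Runx2+/- array Psmb9 lies below Psmb6, and the bars of Psmb8 and Psmb5 overlap. Those of Psmb10 and Psmb7 overlap on both arrays.

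Genes of antigen presentation did not all differ as Psmb8 and Psmb9 did. Of 16 interferon and antigen presentation genes listed, 15 were measured and 11 had an order. The median was 0.18 for age and 0.22 for genotype, with 2 of 11 at least 1.5-fold higher for age (16.2% of all genes were) and 1 of 11 for genotype (19.4%). The 2 were the interferon-induced GTPases Gbp3 (1.0) and Gbp2 (0.68), and for genotype it was B2m, the light chain of MHC class I (0.68). Tap2, the neighbour of Psmb8, was at 1.90, 2.32 and 2.88, higher by 0.42 for age and by 0.56 for genotype, and Tap1 was well above background in Runx2+/- only. Ifng did not clear background on any array.
Of the listed markers of dendritic and antigen-presenting cells, Cd74, H2-Aa, H2-Ab1 and H2-Eb1 had the same signs as Psmb8 and Psmb9. Cd74, the MHC class II invariant chain, was at 2.93, 4.25 and 3.0. Over the 5 listed markers, all measured, the 4 with an order were all above 0 for age (median 0.77) and all below 0 for genotype (median -0.65). For genotype H2-Eb1 differed by only -0.01, within the spot SD of 0.21, and Flt3 had no order. The summed level of the 5 markers, as a multiple of the 75th percentile, was 26.8, 51.3 and 33.8 in the same order.
The same sums were 66.0, 73.9 and 82.0 for 7 macrophage markers and 10.0, 19.5 and 4.74 for 6 T and NK cell markers. Of the 6, 4 did not clear background on any array (Cd3g, Cd3d, Tcra and Ncr1). The other 2 differed in sign for age, Nkg7 by 1.36 and Cd3e by -0.23, and were both below 0 for genotype. Among macrophage markers 4 were above 0 and 3 below for age, and 6 above and 1 below for genotype. Lyz2 differed by -2.28 for age and 2.03 for genotype, and Cd68 by 1.21 and -1.10. The sums were 881.4, 77.2 and 350.2 for 8 neutrophil markers and 11.2, 7.27 and 12.6 for 6 B cell markers. The part of these cells in the immunoproteasome values was not tested.

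The ATPase ring, which threads the substrate into the core, split. Psmc6, at 1.92, 1.48 and 2.34, was 0.44 lower at P7 and 0.87 (1.82-fold) higher in Runx2+/-. Psmc4, at 3.36, 3.71 and 3.48, was 0.35 higher at P7 and 0.23 lower in Runx2+/- (-0.32 and 0.91 with normexp). Psmc5 was likewise 0.26 higher and 0.16 lower (-0.22 and 0.78 with normexp).
Psmc1, Psmc2 and Psmc3 were between -0.19 and -0.02 for age and between 0.13 and 0.39 for genotype. The ring's medians were -0.10 and 0.23. A second Psmc1 probe gave -0.53 and 0.57, farther from 0 than the brightest.

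The non-ATPase subunits of the regulatory particle spread widely. Psmd14, the deubiquitinase that removes the ubiquitin chain (chromosome 2, 61599058 to 61599117 on mm9), was at 0.61, -0.14 and 0.93. It was 0.75 (1.68-fold) lower at P7 than at P5 and 1.08 (2.11-fold) higher in Runx2+/- than in wild type at P7. Psmd11, a scaffold subunit of the lid (probe split between chromosome 11 positions 80283406 and 80283920 on mm9, across an intron), was at 2.07, 1.05 and 1.39, so it was 1.02 (2.03-fold) lower at P7 and 0.33 higher in Runx2+/-.
Psmd2 and Psmd3 went the other way, except with normexp and the 75th percentile. Psmd2, a large scaffold that docks ubiquitin-shuttle proteins, was at 4.61, 5.05 and 4.54, higher by 0.44 at P7 and lower by 0.51 in Runx2+/- (-0.23 and 0.71 with normexp). Psmd3, a lid subunit, was at 5.53, 5.88 and 5.23, higher by 0.35 at P7 and lower by 0.65 (1.57-fold) in Runx2+/-, and with normexp it was 0.53 higher in Runx2+/-. Both were bright, and both had a single probe.
Psmd1, the other large scaffold, was at 4.0, 3.79 and 4.40 and 0.61 higher in Runx2+/-. Over the 11 genes the median was -0.11 for age, with 7 below 0, and 0.39 for genotype, with 9 above 0. The 2 Psmd12 probes gave 0.06 and -0.52 for age and 0.42 and 0.09 for genotype. The ubiquitin receptor Psmd4, the lid subunits Psmd6, Psmd7, Psmd8 and Psmd13, and Psmd12 with its brightest probe, lay between -0.47 and 0.24 for age and between 0.06 and 0.56 for genotype.

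Chaperones that build the regulatory particle included the largest genotype difference of the family. Psmd5 (chromosome 2, 34708108 to 34708167, minus strand, mm9) was at 1.02, 0.15 and 1.38, which is 0.87 (1.82-fold) lower at P7 and 1.22 (2.34-fold) higher in Runx2+/-. It was dim in P7 wild type, at 25.3 intensity units before scaling, as was Psmd14, at 20.6. The remaining members at least 1.5-fold lower for age stood there at 30.1 (Psme4), 37.8 (Psmg2) and 47.2 (Psmd11), beside a 75th percentile of 22.8. Psmb2 (29.9) and Psmg4 (33.6) were dim there too, and were not 1.5-fold apart for age. Psmd10 (gankyrin) was at 0.29, 0.13 and 0.74, and 0.61 higher in Runx2+/-, and it was 0.16 lower there with normexp and median scaling.
Psmd9 depended on its probe. The first 30 of the 60 bases of both probes are printed because they disagree.
Psmd9, position 607 of the transcript (chr5:123691881-123691940, mm9): tgaacacccaaaacttccagtcagtgcaga
Psmd9, position 980 of the transcript (chr5:123698524-123698583, mm9): tgatttgtgcctagctacgtcttgtgcaaa
The brighter, upstream probe gave -0.38 for age and 0.58 for genotype, and the downstream probe 1.17 and -0.53. No direction is therefore given for Psmd9 here, but the counts and medians over members include it by its brighter probe.

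The activators include Psme3, which had the largest age difference of the family, and its probe is shown because of what it is made of.
Psme3, position 2063 of the transcript (chr11:101184289-101184348, mm9), first 30 of 60 bases: tgtgtgcacatacacacgtgcacatgtgtg
Psme3, the nuclear activator subunit PA28 gamma, was at -0.12, 1.44 and 0.59. It was therefore 1.56 (2.94-fold) higher at P7 than at P5, and 0.85 (1.80-fold) lower in Runx2+/- than in wild type at P7, opposite to most of the family. It had 1 probe. Of that probe's 59 overlapping dinucleotides, 42 were TG, GT, CA or AC, against a median of 15 and at most 24 in the probes used for the other members. Array probes with at least 42, Psme3 among them, had a median difference of 1.02 for age, with 11 of 12 above 0, and of -0.79 for genotype, with 0 of 11 above 0. The part of the repeat in the Psme3 values was not tested.
Psme4 (PA200), which binds acetylated histones for degradation, was at 1.1, 0.40 and 0.16, lower by 0.70 (1.62-fold) for age and by 0.24 for genotype. Its other probe gave -1.09 and -0.25, so both probes had the level lowest in Runx2+/-. Runx2+/- at P7 minus wild type at P5 was -0.94, the lowest such difference of the family.
Psme1 and Psme2 form the interferon-inducible activator PA28. Psme1 was at 4.39, 4.28 and 4.17 and Psme2 at 4.89, 4.87 and 5.26. They lay at -0.11 and -0.02 for age, and at -0.11 and 0.40 for genotype. These partners thus differed in sign in Runx2+/-, but the Psme1 difference was within the spot SD of 0.21. With normexp under either scaling Psme1 was above 0 for genotype. A second Psme2 probe gave -0.40 and 0.15.

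The core inhibitor Psmf1 (PI31) did not clear background in P7 wild type. Its level was at least 1.21-fold lower there than at P5, and the genotype difference was at least 0.58 on the log2 scale, just short of 1.5-fold. Of the chaperones that assemble the core, Psmg2, at 1.56, 0.73 and 1.38, was 0.83 (1.78-fold) lower at P7 and 0.65 (1.57-fold) higher in Runx2+/-. Its partner Psmg1, at 2.97, 2.66 and 3.42, was 0.32 lower and 0.77 (1.70-fold) higher, and a dimmer Psmg1 probe gave -0.04 and 0.26. Psmg3 and Psmg4, which form the second chaperone pair, were at 1.35, 1.28 and 1.5, and at 0.83, 0.56 and 0.67. All 4 were below 0 for age and above 0 for genotype. For genotype Psmg3 (0.21) and Psmg4 (0.11) were near or within the spot SD of 0.21. Both were below 0 for genotype with cyclic loess normalization and with normexp and the median. Over the 10 genes with several probes well above background, the probes' root-mean-square SD was 0.42 for age and 0.32 for genotype, and their signs were opposite in 2 genes for age and 3 for genotype.

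Among genes that work with the proteasome, its partners gave medians near those of the family, and the other lists lay nearer 0 for age. Of 10 partners listed, 9 were on the array and measured, with medians of -0.23 for age and 0.39 for genotype. For age 1 of the 9 was at least 1.5-fold lower (11.0% of all genes) and 0 higher (16.2%). For genotype 1 was at least 1.5-fold lower (21.2%) and 0 higher (19.4%). The core chaperone Pomp was at 3.81, 3.58 and 4.07. Ecpas, which tethers the 26S particle, was 0.82 lower at P7, and the ubiquitin receptor Adrm1 was 0.92 lower in Runx2+/-.
Ubiquitin and shuttle genes, 11 with an order among 13 measured and 14 listed, had medians of -0.06 and 0.22. Of the 11, 1 was at least 1.5-fold lower for age, the shuttle Rad23b (-0.61), against 11.0% of all genes, and 0 were 1.5-fold apart for genotype, against 40.7%.
Of 9 genes of the Nfe2l1 and Nfe2l2 axis, which controls proteasome gene transcription, all were measured and 6 had an order, with medians of -0.07 and 0.32. Nfe2l1 did not clear background in P7 wild type, and by its reading there it was 1.91-fold lower at P7 than at P5. That reading (-0.32) was above the array's lowest value well above background (-0.69), so the fold is not a detection limit. Nfe2l2 was 0.78 higher in Runx2+/-. Ddi2, the protease that activates Nfe2l1, was 0.70 lower for age and a further 0.68 lower for genotype, and Keap1, which holds Nfe2l2 back, was 0.69 lower for genotype.

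**Figure D4:**
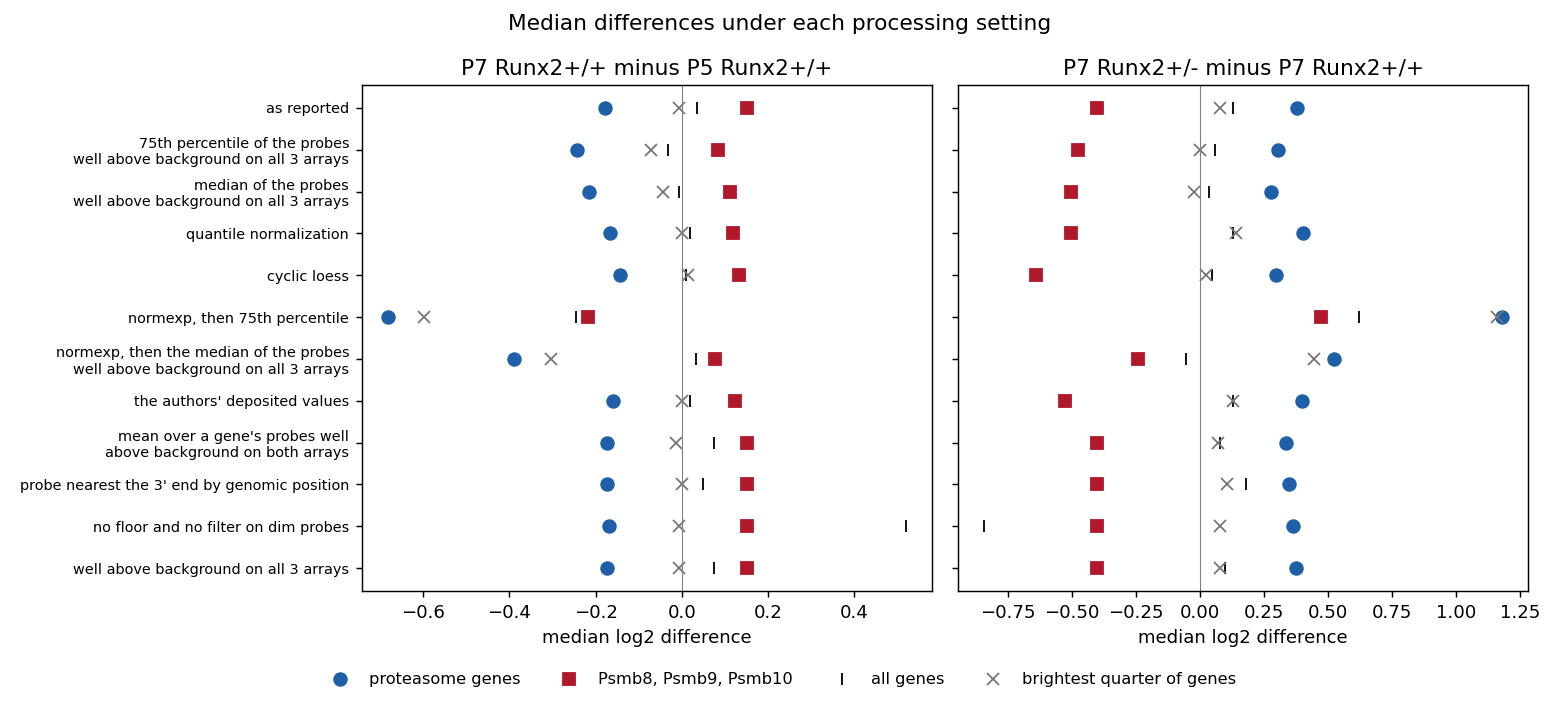
Median log2 difference (x axis) under each processing setting (y axis) for age (left) and genotype (right), for 46 proteasome genes, the 3 immunoproteasome genes, all genes and the brightest genes. Proteasome genes lie below 0 for age and above 0 for genotype in every setting plotted. They lie close to the brightest genes after normexp with the 75th percentile (-0.68 against -0.60, and 1.18 against 1.16). After normexp with the median they are close as well (-0.39 against -0.30, and 0.52 against 0.45).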

How the data were processed

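Per the labels' protocols, total RNA was amplified and labelled with Cy3, and each group had 1 array. The authors deposited 1 scanner file per array. Feature Extraction is given as 10.7.1.1 in the file headers, while the submitters' processing notes name 9.5.1.1. The deposited processed intensity already had background and spatial detrending applied, per the file headers. A table of processed intensities by the authors, with medians of 12.6 in each column and rank correlations with the scanner values that round to 0.9999 or higher, served only as an alternative; how it was made is not given in the sources used here.

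Control and outlier spots were left out and spots of a probe averaged on the log2 scale (55680 probes). From these the 75th percentile of the array was taken off. A gene was its brightest probe. Where 1 array had a gene below background, its value was raised to that array's lowest value well above background, unless already higher (-2.12 for wild type at P5, -0.69 for wild type at P7 and -3.25 for Runx2+/-). The difference was then treated as a bound and kept if the other array was higher. Otherwise the gene had no order. A value already higher, as for Nfe2l1, is the gene's own reading and not a detection limit. Non-member probes were named through RefSeq accessions of GRCm38.p6 (2838 renamed). Coordinates of probes are those of the files, on mm9. Members and lists were chosen with earlier results of these data known. Genes named are catalytic subunits, activators, the inhibitor and core chaperones, the highest and lowest of each ring and of the non-ATPase group, members whose probes disagree in sign, all members at least 1.5-fold apart, and genes of the related lists at least 1.5-fold apart. Marker lists are given by sums and counts. The members and list genes otherwise named, the dinucleotide counts and the promoter motifs were added after values were seen. R 4.3.3 and limma 3.58.1 were used. A simulation planted shifts in scaled values of genes well above background on all arrays. It checked only the choice of probe and the subtraction, not scaling, background correction or the handling of dim genes. The number of arrays limits precision.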

Additional observations from a re-analysis of the deposited data

How the results depend on the processing

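The proteasome median stayed below 0 for age (-0.68 to -0.14) and above 0 for genotype (0.28 to 1.18) in each alternative. Normexp background correction with the 75th percentile moved values most. The proteasome medians became -0.68 for age and 1.18 for genotype, the immunoproteasome medians turned from 0.15 to -0.22 for age and from -0.40 to 0.47 for genotype, and the counts at least 1.5-fold apart became 28 instead of 6 for age (62.2% of members and 26.7% of all genes) and 36 instead of 14 for genotype (78.3% and 61.2%). That setting also moved the median of all genes to -0.24 for age and 0.62 for genotype, and Psmd3 for genotype from -0.65 to 0.53. Normexp with median scaling, chosen after seeing the data, kept the signs of the immunoproteasome medians (0.08 for age, -0.24 for genotype). It gave a genotype count of 23 (51.1% of members, 45.7% of all genes). For genotype it put 6 of 34 members first above 0 below 0, namely Psmb2, Psmd9, Psmd10 (-0.16), Psmd11, Psmg3 and Psmg4. For age it put 3 of 36 members first below 0 above 0, namely Psmb2, Psmd9 and Psmd10. Cyclic loess moved the immunoproteasome genotype median to -0.64. Scaling to probes well above background on all arrays gave a genotype count of 9 (19.6% of members). Of all genes it was 39.1% by the 75th percentile and 38.7% by the median. At 2-fold the counts were 2 for age (4.35%, against 9.51% of all genes) and 2 for genotype (4.35%, against 18.9%). The cause of these shifts was not tested. No paired analysis was possible because each group is 1 array with no replicate numbers. Brightness limits dim genes: the 75th percentile was 22.8 intensity units in P7 wild type, 52.1 at P5 and 124.3 in Runx2+/-.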
